A study of Mus musculus with 16 samples.

Results

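The 10 genes described here build, salvage or break down coenzyme A: Pank1, Pank2, Pank3, Ppcs, Ppcdc, Coasy, Vnn1, Vnn3, Nudt7 and Nudt19. They were chosen by symbol, for their known place in the pathway and with earlier results of these data known, and each is 1 row among the 22612 genes of the deposited mouse liver table. Expression was measured by RNA sequencing in livers of male C57BL/6 mice that were 7 weeks old at purchase and were collected after an overnight fast, with 4 libraries in each of 4 groups. The study compared continuous and alternating fat-rich diets, and its title concerns hepatic steatosis and its attenuation by ketogenic feeding. The chow group received chow (11% of energy from fat) for 16 weeks, and the high-fat group a high-fat diet (58%) for 16 weeks. The chow-alternating group changed between the high-fat diet and chow every 2 weeks over the same 16 weeks. The ketogenic-alternating group changed between the high-fat diet and a ketogenic diet (90.5% of energy from fat) on the same schedule. No group carried an engineered allele. The labels give 6 mice per group, do not say which diet an alternating group received last, and do not say that each library came from its own mouse, so p-values measure the spread between these libraries.

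Coenzyme A carries acyl groups, so fatty acid oxidation, ketone body formation and lipid synthesis all draw on it. Cells make it from the vitamin pantothenate: pantothenate kinases (Pank genes) carry out the first, rate-controlling step, Ppcs adds cysteine, Ppcdc removes a carboxyl group, and Coasy, a bifunctional enzyme, completes the molecule. Nudt7 and Nudt19 are peroxisomal hydrolases that cleave coenzyme A and acyl-coenzyme A, and the vanins Vnn1 and Vnn3 are pantetheinases that release pantothenate and cysteamine from pantetheine outside the cell. Liver coenzyme A is known to rise with fasting, and Vnn1 and Pank1 are known targets of the fatty acid sensor PPAR alpha.

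Values are TPM, the relative abundance of each transcript after correction for length, scaled to 1000000 per library, so levels can be compared between genes but sequencing depth is unknown. All 10 hepatocyte markers examined were abundant, with summed levels of 87222 to 125356 TPM over the 16 libraries. The libraries differed in composition: their 20 highest genes held 27.1% to 38.8% of all TPM, with the lowest shares in ketogenic-alternating livers (27.1% to 29.5%), and chow 2, chow 3, high-fat 1 and high-fat 2 exceeded 33%. The mitochondrial share of TPM ran from 10.2% to 18.4% in chow libraries, with chow 3 the highest and chow 2 (13.6%) next, and from 8.61% to 11.1% in the other groups. The median gene was higher in ketogenic-alternating livers on the log2 scale, by 0.19 against chow-alternating, 0.15 against chow and 0.21 against high-fat. Scaling each library to its median gene removed shifts of 0.18, 0.16 and 0.21, and among genes passing the test the share that was higher moved from 85.6% to 40.5% against chow-alternating and from 73.3% to 52.7% against chow. With that scaling 123 genes passed higher and 181 lower against chow-alternating, where 474 and 80 passed without it. Against chow 378 passed higher and 339 lower, where 407 and 148 passed without it. Differences of members are read below against the medians of all genes.

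Vnn1 was the one member that passed a test over all diets. A moderated F test (limma) over the 4 groups called 443 of 11450 genes (3.87%) at an adjusted p below 0.05, and 1 of the 10 coenzyme A genes, Vnn1, was among them (adjusted p = 0.00721). Coasy (adjusted p = 0.142), Nudt19 (0.142), Vnn3 (0.168) and Pank3 (0.174) came next and did not pass that limma test. Ketogenic-alternating livers had the highest mean for 7 of the 10 members, high-fat livers for 2 (Ppcdc and Nudt7), and chow livers for 1 (Nudt19). Of all genes in that test, 58.6% had their highest mean in ketogenic-alternating, 7.85% in high-fat and 26.6% in chow livers, so the members' count is close to the background.

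**Figure D1:**
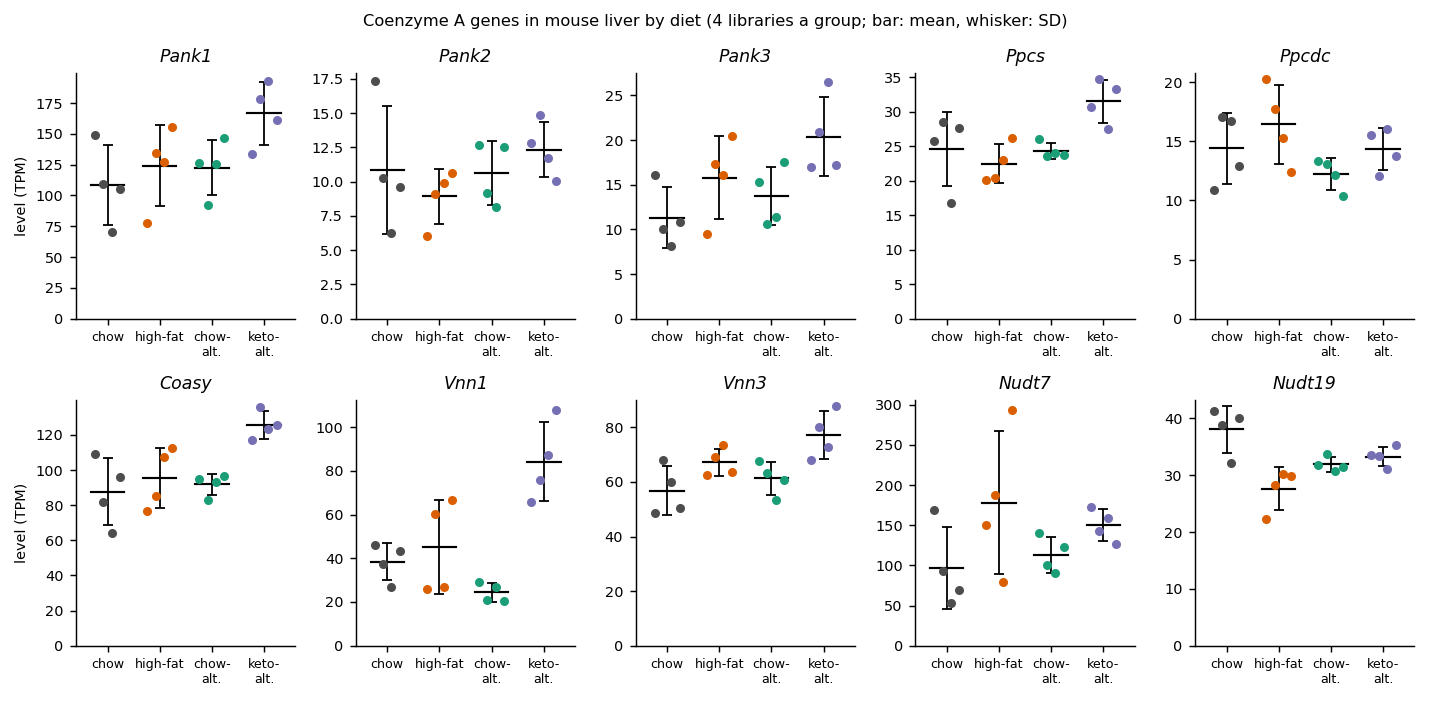
Level in TPM (vertical axes, each starting at 0) of the 10 coenzyme A genes in every library of the 4 diet groups (horizontal axes; points, libraries; bars, means; whiskers, SD of 4 libraries). Vnn1 stood between 65.9 and 108 TPM in ketogenic-alternating livers and between 20.4 and 29.2 TPM in chow-alternating livers. In this comparison the groups did not overlap for 4 of the 10 members, Vnn1, Vnn3, Ppcs and Coasy, against 16.8% of all genes.

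Pank1 was the main pantothenate kinase of these livers, with a mean of 130 TPM over 16 libraries against 15.3 TPM for Pank3 and 10.7 TPM for Pank2. It held 83.2% of the summed kinase TPM in chow livers (± 1.14, SD, n = 4), 83.4% in high-fat, 83.4% in chow-alternating and 83.5% in ketogenic-alternating livers. The makeup of the kinase pool thus stayed within its spread between libraries on every diet. Pank1 stood at 149, 109, 69.99 and 105 TPM in the chow libraries and at 78.0, 135, 128 and 156 TPM in the high-fat libraries. It stood at 126, 92.3, 125 and 147 TPM in chow-alternating and at 134, 179, 193 and 161 TPM in ketogenic-alternating livers. The ketogenic-alternating values were the highest as a group, but the lowest of them lay inside the range of each other diet.

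Pank3, a cytosolic kinase, ranged from 8.13 to 16.1 TPM in chow, 9.44 to 20.5 TPM in high-fat, 10.7 to 17.5 TPM in chow-alternating and 16.9 to 26.5 TPM in ketogenic-alternating livers. All 4 ketogenic-alternating values lay above all 4 chow values, a difference that did not pass (limma adjusted p = 0.0514). Among chow livers, chow 1 had the highest value of each of the 3 kinases. Pank2 ranged from 6.24 to 17.3 TPM in chow livers and from 10.01 to 14.8 TPM in ketogenic-alternating livers. Its groups overlapped in every comparison. Pank1 lies on chromosome 19 (34806940 to 34879455, minus strand; GENCODE vM21 on GRCm38), Pank2 on chromosome 2 (131262495 to 131299188, plus strand) and Pank3 on chromosome 11 (35769484 to 35791285, plus strand). Pank2 shares 1125 exonic bases with Rnf24 on the opposite strand, which averaged 2.07 TPM, and the sources do not say that counting used strand, so reads of the 2 genes cannot be told apart there. Aligned stretches of the 3 kinase transcripts were 72.0% to 74.2% identical with identical runs of at most 28 bases.

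Each pantothenate kinase gene carries a microRNA in an intron on its own strand: Mir107 in Pank1, Mir103-2 in Pank2 and Mir103-1 in Pank3. The mature arms below are printed because they show what these host genes share beyond their enzyme. Capitals mark the seed, bases 2 to 8, and the sequences are those of RefSeq on GRCm38.p6.
mmu-miR-107-3p: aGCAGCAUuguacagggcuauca
mmu-miR-103-3p: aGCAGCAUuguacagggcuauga
The seed is the same in both, and Mir103-1 and Mir103-2 give the same mature 3p arm. Mature microRNAs were not measured in these libraries.

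Pank1 has 2 transcripts in the deposited transcript table, which start at different sites. Pank1-202 (ENSMUST00000112460), which starts at chr19:34877917, held 90.2% of Pank1 TPM on average (82.2% to 95.4% over 16 libraries), and Pank1-201 (ENSMUST00000036584), which starts further upstream at chr19:34879455, held 9.77%. The mean share of Pank1-202 was 89.2% in chow, 91.4% in high-fat, 91.3% in chow-alternating and 89.1% in ketogenic-alternating livers, and exact two-sided permutation tests between groups gave p of 0.457 or more. The shares of the 2 transcripts did not differ between diets beyond the spread between libraries. The starts given are those of RefSeq, and the deposited coordinates of both transcripts differ from GENCODE vM21. The pairing of start and transcript is therefore not certain. The 250 bases before each start are given below because the data bear on their use, with the upstream region of Ppcs, in which the search described next found a motif (capitals). All are from RefSeq, GRCm38.p6, 5′ to 3′ on the strand of the gene, which is minus for all 3.
Pank1-202, chr19:34877918-34878167: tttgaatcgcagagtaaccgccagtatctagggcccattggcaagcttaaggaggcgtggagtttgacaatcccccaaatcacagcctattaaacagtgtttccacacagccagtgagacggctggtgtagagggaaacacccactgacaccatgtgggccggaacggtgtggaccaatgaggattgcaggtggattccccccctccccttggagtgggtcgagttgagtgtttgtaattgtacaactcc
Pank1-201, chr19:34879456-34879705: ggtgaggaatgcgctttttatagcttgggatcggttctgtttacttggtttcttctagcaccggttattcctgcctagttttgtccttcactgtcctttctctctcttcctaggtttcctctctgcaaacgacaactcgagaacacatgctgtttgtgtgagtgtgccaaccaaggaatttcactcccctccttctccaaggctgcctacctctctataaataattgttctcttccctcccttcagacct
Ppcs, chr4:119422421-119422670: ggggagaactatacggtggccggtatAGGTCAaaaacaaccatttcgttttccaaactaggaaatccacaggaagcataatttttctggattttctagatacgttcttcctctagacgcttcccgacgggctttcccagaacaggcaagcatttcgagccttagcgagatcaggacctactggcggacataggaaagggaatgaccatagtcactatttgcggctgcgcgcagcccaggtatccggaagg
The motif AGGTCA, to which many nuclear receptors bind, was searched on both strands from 250 bases before to 50 bases after each RefSeq start. RefSeq held 12 such windows for 8 of the 10 members, and Vnn1 and Coasy were not searched. AGGTCA occurred once in the Ppcs window, at position -224, and once in the Ppcdc window, at position 27, and these letters were not in the other 10 windows. Over all 32851 windows of this length, 16.3% held it. A direct repeat of AGGTCA with 1 free base N between the copies, searched with at most 2 mismatches, overlapped the motif in the Ppcdc window and occurred in 3.86% of all windows.

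After the kinase step, Coasy was the most abundant enzyme of the pathway, at a mean of 100.2 TPM over 16 libraries, against 25.8 TPM for Ppcs and 14.4 TPM for Ppcdc. Coasy stood at 109, 81.9, 64.1 and 95.8 TPM in chow livers and at 76.4, 85.4, 107 and 112 TPM in high-fat livers. It stood at 94.7, 83.1, 93.2 and 96.7 TPM in chow-alternating and at 117, 136, 124 and 126 TPM in ketogenic-alternating livers. Every ketogenic-alternating library lay above all 12 others. Ppcs ranged from 16.7 to 28.5 TPM in chow, 20.1 to 26.3 TPM in high-fat, 23.5 to 26.1 TPM in chow-alternating and 27.6 to 34.7 TPM in ketogenic-alternating livers. Its ketogenic-alternating values lay above all high-fat and all chow-alternating values and overlapped those of chow.

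Ppcdc followed another order. It averaged 16.4 TPM in high-fat, 14.4 TPM in chow, 14.4 TPM in ketogenic-alternating and 12.2 TPM in chow-alternating livers, with overlap between groups in every comparison. Only 17.9% of its TPM was assigned to Ppcdc-201, its longest protein-coding transcript, while 38.2% went to Ppcdc-213, annotated as a target of nonsense-mediated decay, and 34.8% to the shorter coding transcript Ppcdc-204. Most of the Ppcdc total was thus assigned to transcripts other than the longest coding one. Across the 16 libraries Ppcdc also ran against the other synthesis genes: its Pearson r with Pank1, Pank2, Pank3, Ppcs and Coasy lay between -0.62 and -0.31, and between -0.86 and -0.53 for deviations from the group means. With Vnn3 its r was 0.30. Among those 5 genes, the 10 pairwise r lay between 0.54 and 0.94, and within groups between 0.37 and 0.92. These correlations describe 16 libraries that share a composition axis, given below.

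Vnn1, a membrane-anchored pantetheinase, stood at 45.9, 37.2, 26.9 and 43.6 TPM in the chow libraries. In high-fat livers it stood at 26.1, 60.4, 27.0 and 66.7 TPM, so that 2 libraries lay at the level of chow-alternating livers and 2 near that of ketogenic-alternating livers. In chow-alternating livers it stood at 29.2, 20.8, 27.0 and 20.4 TPM, and in ketogenic-alternating livers at 65.9, 75.8, 87.2 and 108 TPM. The ketogenic-alternating range lay clear of chow and of chow-alternating and met the high-fat range at its upper end. Vnn1 had the widest relative range of the members beside Nudt7: its highest library was 5.29 times its lowest, against 5.49 times for Nudt7 and 1.81 to 3.26 times for the other 8.

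Vnn3, the neighbouring paralog, differed less between diets by group means. It averaged 56.8 TPM in chow, 67.2 TPM in high-fat, 61.3 TPM in chow-alternating and 77.2 TPM in ketogenic-alternating livers. Its 4 ketogenic-alternating libraries (67.99, 80.3, 72.7 and 88.0 TPM) lay above the highest chow library (67.98 TPM), the lowest of them only just, and the highest chow-alternating library (67.8 TPM). Vnn3 lies on chromosome 10 (23851462 to 23869843, plus strand), 24844 bases before Vnn1 (23894688 to 23905343, plus strand). Their transcripts aligned over 1378 bases at 68.7% identity with identical runs of at most 12 bases. In chow-alternating livers Vnn3 was the more abundant of the pair in all 4 libraries, whereas in ketogenic-alternating livers the means were 84.2 TPM for Vnn1 and 77.2 TPM for Vnn3.

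Of the hydrolases that remove coenzyme A, Nudt7 was the more abundant, at a mean of 134 TPM against 32.7 TPM for Nudt19. Nudt7 stood at 169, 93.2, 53.4 and 69.5 TPM in chow and at 151, 187, 79.7 and 293 TPM in high-fat livers. It stood at 140, 99.9, 90.3 and 123 TPM in chow-alternating and at 172, 142, 159 and 127 TPM in ketogenic-alternating livers. In chow and in high-fat livers the libraries of the group differed by more than the 4 group means did, and the 2 alternating groups were narrower. Nudt19 stood at 41.3, 38.8, 32.1 and 40.2 TPM in chow and at 22.2, 28.2, 30.3 and 29.9 TPM in high-fat livers, without overlap. It ranged from 30.8 to 33.7 TPM in chow-alternating and from 31.1 to 35.3 TPM in ketogenic-alternating livers, above every high-fat library, though the lowest values only just. None of these differences passed in limma (adjusted p = 0.301 for high-fat against chow, 0.9995 for chow-alternating and 0.486 for ketogenic-alternating against high-fat). The share of all genes without overlap is given only for ketogenic-alternating against chow-alternating and against high-fat livers, below. Nudt19 shares 938 exonic bases with a gene on the opposite strand, B230322F03Rik.

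The share of 1 Nudt7 transcript, singled out after its values were seen, did not overlap between the diets with and without chow. Of its 5 coding transcripts, Nudt7-201 (ENSMUST00000066514, 621 coding bases) is the one that lacks the second exon of the main form Nudt7-202 (708 coding bases), an exon of 154 bases at chr8:114136338-114136491 on the plus strand (GRCm38). The exon is printed because the share of the transcript without it separated the diets. Capitals mark the exon, with 20 bases of the neighbouring exons on each side, from the GENCODE vM21 transcripts.
Nudt7-202, exon included: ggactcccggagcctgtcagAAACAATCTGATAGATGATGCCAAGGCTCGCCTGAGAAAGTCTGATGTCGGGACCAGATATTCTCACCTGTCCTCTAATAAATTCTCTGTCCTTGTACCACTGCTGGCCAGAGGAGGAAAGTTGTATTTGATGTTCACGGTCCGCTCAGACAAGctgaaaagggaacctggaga
Nudt7-201, exon skipped: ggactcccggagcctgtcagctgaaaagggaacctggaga
Nudt7-201 held 11.6%, 14.5%, 9.72% and 8.39% of Nudt7 TPM in chow livers and 7.29%, 10.7%, 9.71% and 8.48% in chow-alternating livers. It held 6.25%, 5.95%, 2.37% and 3.74% in high-fat livers and 5.34%, 4.47%, 4.06% and 2.42% in ketogenic-alternating livers. The 8 libraries of mice that received chow, continuously or in turn, thus all lay above the 8 libraries of mice whose diets included no chow. The group means were 11.1% in chow, 9.05% in chow-alternating, 4.58% in high-fat and 4.07% in ketogenic-alternating livers.

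These shares are a description, since the transcript was singled out because its groups did not overlap. Transcripts of other genes were not examined for the same split, so how common it is cannot be given. Exact two-sided permutation tests were run for 21 of the 43 member transcripts in all comparisons, 126 tests in all. The 21 held at least 5% of their gene in at least 4 libraries, in genes with more than 1 transcript. Of these permutation tests, 7 stood at the smallest p that 4 libraries against 4 allow (0.0286), 4 of them for Nudt7-201. None passed after Benjamini-Hochberg adjustment of these permutation tests, where the smallest value was 0.514. With 7 of 126 tests at the smallest possible p, none could have passed, so this outcome says nothing about the shares. The level of Nudt7-201 itself overlapped between groups (5.19 to 19.6 TPM in chow, 8.76 to 10.7 TPM in chow-alternating, 1.89 to 11.2 TPM in high-fat, 3.08 to 9.20 TPM in ketogenic-alternating livers). Transcript shares are estimates that divide reads among overlapping models, and their error cannot be read from the deposited values.

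**Figure D2:**
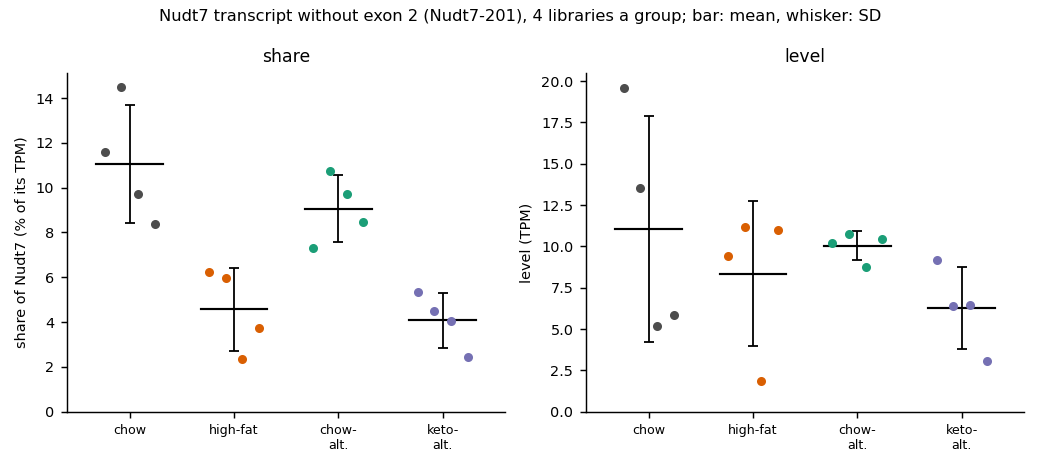
Share of Nudt7 TPM held by the transcript without exon 2 (left, percent) and its level in TPM (right) in every library by diet group (points, libraries; bars, means; whiskers, SD of 4 libraries). The shares lay between 7.29% and 14.5% in chow and chow-alternating livers and between 2.37% and 6.25% in high-fat and ketogenic-alternating livers, while the levels overlapped.

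The other share tests at the smallest p concerned Pank2-207, Pank2-205 and Ppcs-201. Pank2-207, a transcript annotated as a target of nonsense-mediated decay, held 21.1%, 30.1%, 25.3% and 26.6% of Pank2 in ketogenic-alternating livers and 0%, 4.84%, 0% and 7.48% in high-fat livers. In chow and chow-alternating livers its share ran from 0% to 39.5% and from 0% to 43.8%, so its spread within those groups covered both. Pank2-205 averaged 1.84% in chow-alternating and 4.83% in chow livers, and Ppcs-201, the main coding transcript of Ppcs, 89.9% in ketogenic-alternating and 96.0% in chow-alternating livers. Vnn1-201, Vnn3-201, Pank3-201 and Nudt19-201 held 97.4%, 100%, 100% and 98.9% of their genes, and for these members gene and coding transcript are nearly the same quantity.

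Ketogenic-alternating against chow-alternating livers compares the second diet in the alternation. Vnn1 and Coasy rose: limma called 554 of 11002 genes (5.04%; 4.31% higher), and 2 of the 10 members passed, both higher. Vnn1 was 3.46 times as abundant by group means (84.2 ± 18.1 against 24.4 ± 4.43 TPM, SD, n = 4), a log2 difference of 1.74 with a standard error of 0.16 (limma, adjusted p = 0.000522). Coasy was 1.37 times as abundant (126 ± 7.83 against 91.9 ± 6.07 TPM, SD, n = 4), a log2 difference of 0.45 with a standard error of 0.09 (limma, adjusted p = 0.0177). All 10 members had a difference above 0, as did 79.6% of all genes tested, and the median member stood at 0.38 against 0.19 for all genes. Vnn1 alone also met the stricter rule of at least a 2-fold change, which 0.782% of genes met.

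Ppcs (0.36, limma adjusted p = 0.0590), Vnn3 (0.33, 0.0918), Pank3 (0.54, 0.0943), Pank1 (0.44, 0.0988) and Nudt7 (0.41, 0.106) had unadjusted p below 0.05 and did not pass, which makes 7 of 10 members below that value, against 29.0% of all genes. The groups did not overlap for 4 of the 10 members, Vnn1, Vnn3, Ppcs and Coasy, against 16.8% of all genes. With libraries scaled to the median gene, Vnn1 still passed in limma (1.54, adjusted p = 0.00380), whereas Coasy did not (0.24, adjusted p = 0.241) and Nudt19 turned to -0.14. Of all genes, 123 passed higher and 181 lower with that scaling. Coasy also missed the limma threshold with all 16 libraries in the fit (adjusted p = 0.196) and with the replicate number as a block (0.0773). The same limma threshold was missed without chow-alternating 2 (adjusted p = 0.0550), chow-alternating 3 (0.0536) or ketogenic-alternating 2 (0.0686). Without ketogenic-alternating 4 the passing members were 5: Vnn1, Coasy, Pank3, Ppcs and Nudt7. Fits without 1 library called 162 to 2513 genes in all, against 554 in the main fit, so these 5 cannot be set against the main share. Moving with this comparison were summed markers of sinusoidal endothelium (105 to 153 TPM against 60.1 to 88.2 TPM, 2 of 6 markers passing higher) and of hepatocytes (87222 to 95002 TPM against 108112 to 118444 TPM, 1 of 10 passing lower). Kupffer cell markers summed to 122 to 427 TPM against 136 to 188 TPM, with 0 of 7 passing. Their part in the result was not tested. In bulk tissue, fewer cells of a type and less RNA per cell cannot be told apart.

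Against chow, ketogenic-alternating livers showed a rise of Vnn1: limma called 555 of 11091 genes (5.0%; 3.67% higher), and of the 10 members Vnn1 passed. It was 2.19 times as abundant (84.2 ± 18.1 against 38.4 ± 8.53 TPM, SD, n = 4), a log2 difference of 1.12 with a standard error of 0.20 (limma, adjusted p = 0.00965), and it met the 2-fold rule that 2.32% of genes met. Of the other members, 8 had differences above 0 and Nudt19 stood at -0.19, and the median member stood at 0.49 against 0.15 for all genes. Pank3 was the closest to the threshold (0.82, limma adjusted p = 0.0514), followed by Coasy (0.54, 0.0873), Pank1 (0.65, 0.102), Vnn3 (0.44, 0.112) and Nudt7 (0.76, 0.154). With median-gene scaling both Vnn1 (0.94) and Pank3 (0.65, limma adjusted p = 0.0458) passed. Of all genes, 378 passed higher and 339 lower with that scaling. Without the 4 libraries whose 20 highest genes exceeded 33% of TPM, an alternative chosen after seeing the data, chow 2 and chow 3 dropped out, no member passed, and Vnn1 stood at 0.87 (limma adjusted p = 0.0641). Without chow 1, 5 members passed: Vnn1, Pank1, Pank3, Coasy and Nudt7. Fits without 1 library called 181 to 1620 genes in all here, against 555 in the main fit, so these 5 cannot be set against the main share. The mitochondrial share of TPM was 8.62% to 10.2% in ketogenic-alternating and 10.2% to 18.4% in chow livers. Endothelial markers summed to 105 to 153 TPM against 68.6 to 124 TPM in chow, with 0 of 6 passing, and 3 of 10 hepatocyte markers passed, 1 higher and 2 lower; their part in the result was not tested.

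Against continuous high-fat feeding, ketogenic-alternating livers gave no passing member in limma, and hardly any genes passed at all (4 of 11108, 0.0360%). Vnn1 was 1.87 times as abundant (log2 difference 0.99, 95% interval 0.33 to 1.65, limma adjusted p = 0.486), and 4 members had unadjusted p below 0.05: Vnn1, Pank2 (0.44), Ppcs (0.48) and Coasy (0.41), against 10% of all genes. The groups did not overlap for 3 of the 10, Ppcs, Coasy and Nudt19, against 6.85% of all genes. This comparison shares its ketogenic-alternating libraries with the comparisons above.

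The other 3 comparisons also gave 0 of 10 members passing in limma. For high-fat against chow, 1.06% of genes passed, and Nudt19 (-0.45, 95% interval -0.82 to -0.08, limma adjusted p = 0.301) was the 1 member with an unadjusted p below 0.05, as 11.6% of all genes had. Nudt7 stood at 0.87 with an interval of -0.01 to 1.75, so a difference of this size could not be told from the spread between libraries. For chow-alternating against high-fat, 0.0459% of genes passed. There Vnn1 (-0.75, interval -1.40 to -0.10) and Ppcdc (-0.38, interval -0.76 to -0.01) had unadjusted p below 0.05, against 4.15% of all genes. For chow-alternating against chow, 1.16% of genes passed, and Vnn1 (-0.62, interval -1.04 to -0.21, limma adjusted p = 0.173) was the 1 member below an unadjusted 0.05, against 12.3% of all genes; without chow 3 it passed (-0.78, adjusted p = 0.0485). The intervals of the synthesis enzymes were wide in these 3 comparisons: that of Pank3 ran from -0.13 to 1.02 for high-fat against chow, and that of Pank1 from -0.46 to 0.48 for chow-alternating against high-fat and from -0.26 to 0.68 for chow-alternating against chow.

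**Figure D3:**
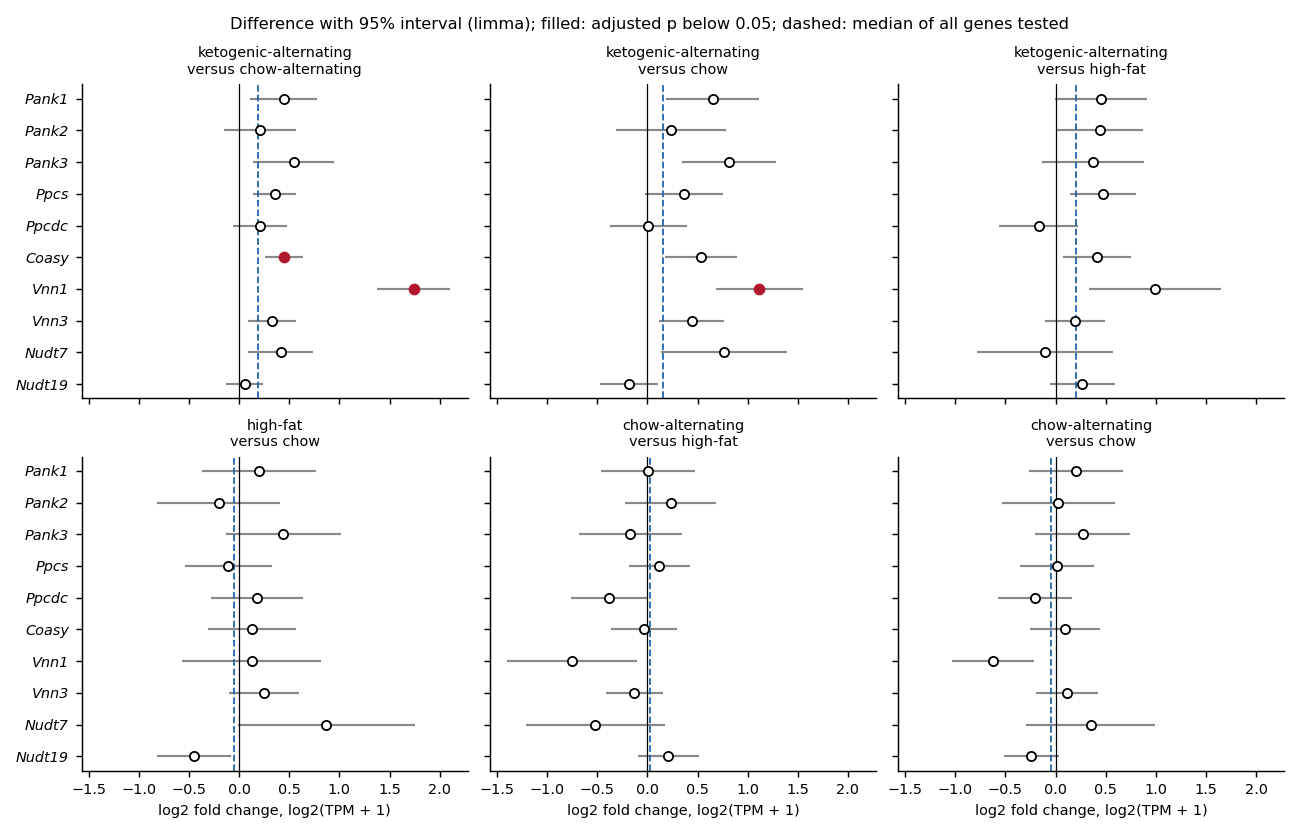
Log2 fold change on the log2(TPM + 1) scale (horizontal axes) with 95% interval from limma for the 10 members (vertical axes) in 6 comparisons of diets. Filled points passed at an adjusted p below 0.05, and dashed lines mark the median of all genes tested, 0.19 for ketogenic-alternating against chow-alternating and 0.15 against chow.

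Of 13 genes that feed, move or modify coenzyme A, all expressed, 1 passed the F test over the 4 diets, against 3.87% of all genes: Btd, the biotinidase that is a relative of the vanins (limma, adjusted p = 0.00765). Btd was highest on chow (74.2, 70.1, 69.4 and 64.1 TPM in descending order), lower in chow-alternating (51.1 to 59.0 TPM), ketogenic-alternating (46.4 to 51.6 TPM) and high-fat livers (42.8 to 48.3 TPM), and all 12 other libraries lay below the lowest chow library. Against chow it fell in ketogenic-alternating livers by 0.51 on the log2 scale (limma adjusted p = 0.0303), where 1.33% of all genes fell. Slc5a6, the plasma membrane transporter for pantothenate and biotin, was low throughout (1.63 to 7.56 TPM) and did not pass the F test (limma, adjusted p = 0.1805). In pairwise tests it was higher in ketogenic-alternating livers, at 6.14 TPM against 3.31 TPM in chow-alternating (limma adjusted p = 0.0386) and 2.72 TPM in chow livers (0.0282). Its ketogenic-alternating values (4.83 to 6.895 TPM) overlapped those of high-fat livers (2.12 to 7.56 TPM, limma adjusted p = 0.487). With median-gene scaling it passed against chow only. Csad, which turns cysteine sulfinate toward taurine, ranged from 158 to 435 TPM in chow and from 97.5 to 151 TPM in high-fat livers, without overlap, at -1.25 on the log2 scale (limma adjusted p = 0.0658), and it passed with median-gene scaling. Aasdhppt, which transfers the phosphopantetheine arm of coenzyme A to carrier proteins, ranged from 11.9 to 14.97 TPM in chow and from 9.60 to 10.2 TPM in high-fat livers (limma adjusted p = 0.333).

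Enzymes that load fatty or acetyl groups onto coenzyme A were listed as 18 genes, of which 13 were expressed. On the F test, which 3.87% of all genes passed, 2 passed: Slc27a1 (limma, adjusted p = 0.0136) and Acsm1 (0.0251). Slc27a1, a fatty acid transport protein with acyl-coenzyme A synthetase activity, stood at 16.9 to 24.4 TPM in ketogenic-alternating livers and at 7.68 to 17.8 TPM in the 12 others, with 1 high-fat library inside the ketogenic-alternating range. Acsm1, a medium-chain synthetase, was lower on chow (158 to 227 TPM) than in each of the 3 groups that received the high-fat diet (247 to 344 TPM), without overlap. The Slc27a1 call was lost without ketogenic-alternating 2, 3 or 4 (limma adjusted p of 0.0506 to 0.0616) and the Acsm1 call without chow 3 or 4 or ketogenic-alternating 2 or 3 (0.0540 to 0.102). Without the libraries above 33% in 20 genes both were lost (0.0540 for Slc27a1 and 0.0696 for Acsm1). Against chow-alternating livers 2 of the 13 rose in ketogenic-alternating livers (Acsm3 and Slc27a1) and 1 fell (Slc27a5), against 4.31% of all genes higher and 0.727% lower. With median-gene scaling Slc27a1 (higher) and Slc27a5 (lower) passed, against 123 of all genes higher and 181 lower. Against chow 6 rose (Acsl3, Acsm1, Acsm3, Acsm5, Acss3 and Slc27a1) and none fell, against 3.67% of all genes higher. With median-gene scaling 3 rose (Acsm3, Acsm5 and Slc27a1), against 378 of all genes higher and 339 lower. Acsl3 averaged 16.6 TPM in ketogenic-alternating livers against 8.17 TPM in chow, and Acss3, a propionyl-coenzyme A synthetase, 14.9 against 7.14 TPM.

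Of 20 listed genes comprising PPAR alpha and genes it is known to drive in mouse liver, 3 passed the F test, against 3.87% of all genes: Fgf21 (limma, adjusted p = 0.00326), Acadm (0.00483) and Acot2 (0.00897). In ketogenic-alternating against chow-alternating livers 9 of the 20 rose and none fell, against 4.31% of all genes higher, with a median of 0.68 against 0.19 for all genes. With median-gene scaling 4 rose (Acadm, Acot2, Cpt1a and Fgf21), against 123 of all genes higher and 181 lower. Against chow 3 of the 20 rose (Acadm, Cpt1a and Fgf21), against 3.67% of all genes higher. The same 3 passed with median-gene scaling, against 378 of all genes higher and 339 lower. Without that scaling the median was 0.34 against 0.15 for all genes. Above 0 lay 14 of the 20, as did 68.8% of all genes tested. In the other 4 comparisons no gene of these 3 lists passed in limma. There 0 to 11 genes a list had an unadjusted p below 0.05, against 4.15% to 12.3% of all genes. The 11 were of the 20 PPAR alpha genes in ketogenic-alternating against high-fat livers, where 10% of all genes lay below that value. With median-gene scaling Ehhadh was lower in chow-alternating than in chow livers and Csad in high-fat than in chow livers. Of all genes, 56 passed lower in the first of these comparisons and 57 in the second with that scaling. Fgf21, a fasting hormone of the liver, stood at 68.1, 37.8, 9.65 and 34.9 TPM in ketogenic-alternating livers and at 2.58 to 20.4 TPM in the 12 others. Acadm, the medium-chain acyl-coenzyme A dehydrogenase, stood at 490 to 623 TPM in ketogenic-alternating livers and at 264 to 395 TPM in the others. Acot2, a mitochondrial thioesterase that frees coenzyme A, stood at 14.9 to 27.4 TPM there and at 7.06 to 12.1 TPM in chow-alternating livers, and overlapped chow (12.6 to 17.2 TPM; limma adjusted p = 0.176) and high-fat livers (8.37 to 14.98 TPM). Vnn1 belongs by its known biology with this list and was kept out of its counts.

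By Pearson r of log2(TPM + 1) over the 16 libraries among 11058 genes, those closest to Vnn1 included Aldh3a2 (0.89), a fatty aldehyde dehydrogenase, Pparg (0.89), a lipid-sensing nuclear receptor, Acadm (0.88) and Casc4 (0.87). Aldh3a2 averaged 182 TPM in chow, 197 TPM in high-fat, 164 TPM in chow-alternating and 454 TPM in ketogenic-alternating livers, so its group means ranked as those of Vnn1 did. The genes nearest to Pank1 were Pgm2 (r = 0.96), Aldh6a1, Hsd17b7, Bbox1 and Idh1 (0.94 each), and those nearest to Nudt7 were Dio1 (0.89), the deiodinase that activates thyroid hormone, Keg1 (0.83), Fzd7, E2f8 and Zfp976. These r describe 16 libraries in 4 groups and were the highest of many.

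The synthesis enzymes other than Ppcdc moved with library composition, and so did the median gene. The factor that scales a library to its median gene is high where that gene is low. It was 0.81 in ketogenic-alternating 1, with the lowest share of TPM in the 20 highest genes (27.1%). In chow 3, with the highest share (38.8%), it was 1.25. The r of all genes with this share is not given, so the values below cannot be called particular to these enzymes. Across the 16 libraries the r of log2 level with the share of TPM in the 20 highest genes was -0.91 for Coasy, -0.81 for Pank1, -0.78 for Pank2, -0.77 for Ppcs and -0.75 for Pank3. Within groups the same r was -0.92 for Coasy, -0.70 for Pank1, -0.84 for Pank2, -0.72 for Ppcs and -0.64 for Pank3. Vnn1 followed composition less (-0.46 over all libraries, -0.34 within groups). Nudt7 stood at -0.52 and -0.49, Nudt19 at -0.22 and -0.73, and Vnn3 at -0.24 and 0.40, over all libraries and within groups. Ppcdc ran the other way (0.52 over all libraries, 0.71 within groups). The part of library composition in the Coasy difference was not tested, beyond the loss of its call with median-gene scaling.

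**Figure D4:**
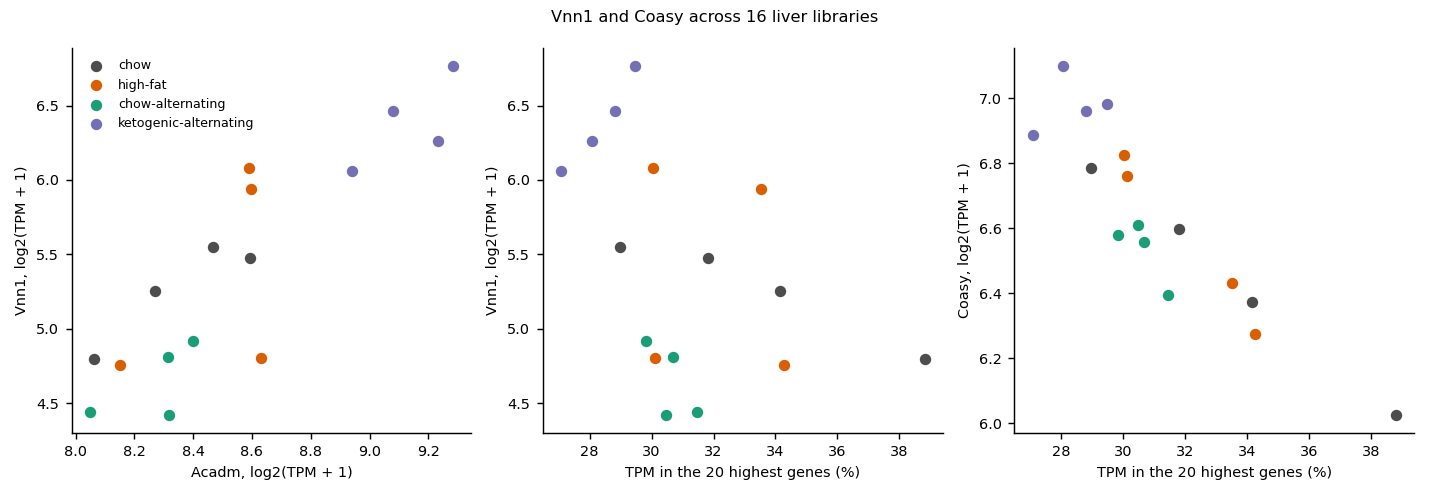
Vnn1 against Acadm (left), Vnn1 against the percent of TPM in the 20 highest genes (middle) and Coasy against that percent (right), levels as log2(TPM + 1), with 1 point per library coloured by diet group. The r was 0.88 for Vnn1 with Acadm, -0.91 for Coasy with the share in the 20 highest genes and -0.46 for Vnn1 with that share.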

How the data were processed

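Per the labels, total RNA of mouse liver was sequenced in 16 libraries, 4 per diet group. Per the submitters' processing notes, HISAT2, RSEM 1.1.17 and edgeR 3.14.0 were used on mm10. Values deposited by the authors are TPM per gene and transcript: each column sums to 1000000, although the series' design text names FPKM. TPM keeps no depth, so no interval that needs counts is given. Genes that reached 1 TPM in 4 or more libraries of a comparison were kept, and their log2(TPM + 1) was fitted with limma 3.58.1 (R 4.3.3, intensity trend, 2-sided) over all genes for each pair of groups, with a moderated F test over the 4 groups. Genes passed at a Benjamini-Hochberg adjusted p below 0.05, with no fold limit, and a fold of 2 was the stricter rule. Differences on this scale understate changes of low genes. Scripts were tested on simulated data. Shares of transcripts holding at least 5% of their gene in at least 4 libraries, in genes with more than 1 transcript, were compared by exact permutation tests (70 splits). Named list genes were the 4 of smallest adjusted p on the F test per list. Most similar genes were the 5 of highest Pearson r. A result of these rules is not reported here. The members and lists were chosen with earlier results of these data known. Positions and transcripts come from GENCODE vM21 (GRCm38), promoters and microRNAs from RefSeq. Alternatives were the pseudocount (0.1), filters, trend, samples in the fit, median-gene scaling, a replicate block and leaving out libraries.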

Additional observations from a re-analysis of the deposited data

How the results depend on the processing

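Vnn1 passed over the 4 diets and against chow-alternating livers under every alternative run (log2 difference 1.54 to 1.85), and against chow under all but 1. Counts of the 10 members that passed moved as follows. In ketogenic-alternating against chow-alternating livers 2 became 1 with all 16 libraries in the fit, with median-gene scaling and with the replicate number as a block, and 1 to 5 leaving out 1 library. In ketogenic-alternating against chow 1 became 3 with all 16 libraries (Vnn1, Pank3 and Coasy), 2 with median-gene scaling and 0 without the libraries above 33%, and 1 to 5 leaving out 1 library. High-fat against chow gave 1 with all 16 libraries (Nudt19), chow-alternating against chow 0 to 1 leaving out 1 library, and the F test 2 without the libraries above 33% (Vnn1 and Coasy). The replicate block took Coasy to an adjusted p of 0.0773 and Acsm1 to 0.0738. Deviations of same-numbered libraries correlated between -0.58 and 0.39, with 4 of 24 above 0.1. Differently numbered libraries were not compared, so these r do not settle whether the numbers pair the libraries. Passing genes in all ran from 554 to between 107 and 2513 for ketogenic-alternating against chow-alternating, from 555 to 181 and 1620 against chow, from 4 to 1 and 22 against high-fat, from 116 to 19 and 399 for high-fat against chow, from 5 to 1 and 32 for chow-alternating against high-fat, and from 126 to 3 and 242 for chow-alternating against chow.

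Of 60 member differences, 17 changed sign under some alternative, all of absolute size up to 0.24 and none passing. With median-gene scaling Pank1 stood at -0.024 in chow-alternating against high-fat, Vnn3 at -0.044 in ketogenic-alternating against high-fat, Nudt19 at -0.14 against chow-alternating and Ppcdc at -0.16 against chow. Without the libraries above 33%, Vnn1 stood at -0.071 in high-fat against chow, Pank1 at -0.22 and Ppcs at -0.014 in chow-alternating against high-fat, Ppcdc at 0.046 in ketogenic-alternating against high-fat, and Pank2 at -0.078 in ketogenic-alternating against chow. In chow-alternating against chow it put Pank1 at -0.051, Pank2 at -0.29, Ppcs at -0.12, Ppcdc at 0.035 and Coasy at -0.15. Leaving out 1 library gave -0.049 to 0.20 for Coasy, -0.18 to 0.26 for Pank2 and -0.16 to 0.089 for Ppcs in chow-alternating against chow. It gave -0.14 to 0.046 for Coasy and -0.20 to 0.14 for Pank1 in chow-alternating against high-fat, and -0.011 to 0.24 for Coasy, -0.42 to 0.031 for Pank2 and -0.10 to 0.34 for Vnn1 in high-fat against chow. It gave -0.44 to 0.18 for Nudt7 in ketogenic-alternating against high-fat and -0.11 to 0.094 for Ppcdc against chow. The cause was not tested. Depth is unknown, so what it limits cannot be given.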
